A study of Mus musculus with 12 samples.

Results

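Doxorubicin is moved out of cells by ATP-driven membrane pumps and is altered inside them by reductases. The transcripts of 7 such mouse genes were followed here: the pumps Abcb1a, Abcb1b, Abcc1 and Abcg2, the carbonyl reductases Cbr1 and Cbr3, and the P450 oxidoreductase Por. They were chosen by symbol, as transporters that export anthracyclines and enzymes that reduce them, and the rule itself used no measured value. All 7 were found among the 56980 gene IDs of the count table, and all 7 were among the 16648 genes that passed the filter on low counts.

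NIH/3T3 cells, an established mouse embryonic fibroblast line labelled as wild type, received, for 8 h, 200 nM of the drug carfilzomib (the CFZ group), 5 µM of doxorubicin (the DOX group), both at those doses (the CFZ-DOX group) or only the solvent DMSO. Carfilzomib blocks the proteasome irreversibly. Doxorubicin, an anthracycline, inserts itself between DNA bases and traps topoisomerase II on DNA. Polyadenylated RNA was sequenced in 12 libraries, 3 per group. The labels do not say whether the 3 libraries of a group came from separate cultures, so the p-values reflect only how much these libraries vary, which may be technical variation. A single cell line, dose and time were used, so nothing here bears on other cells or on the course of the response.

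ABC transporters bind ATP and use it to carry substrates across the membrane. Abcb1a and Abcb1b are the mouse genes for P-glycoprotein, the pump for which multidrug resistance was first described, and human cells have a single gene in their place. Abcc1 encodes MRP1, which exports glutathione conjugates and anthracyclines, and Abcg2 encodes BCRP, a pump that works as a dimer. Cbr1 and Cbr3 use NADPH to reduce carbonyl groups, and carbonyl reductases turn doxorubicin into the alcohol doxorubicinol. Por passes electrons singly from NADPH to P450 enzymes, heme oxygenases and squalene epoxidase, and it can also reduce the quinone of doxorubicin to a radical that reacts with oxygen.

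Library totals ran from 28278879 to 42033993 counts, so a gene with 0 counts could have had up to 0.0714 to 0.106 CPM, the library-scaled count, by counting error only. Levels below are CPM scaled with the TMM factors unless another scale is named. Of 12 fibroblast markers, 10 reached 1 CPM in every group, while Fap was at 0 in DMSO, CFZ and CFZ-DOX. They moved with treatment: their summed level was 24599 to 31815 CPM in DMSO, 17872 to 27696 in CFZ, 28495 to 65609 in DOX and 41929 to 103586 in CFZ-DOX. Of the 10 tested, 0 rose and 3 fell with CFZ, 3 rose and 2 fell with DOX, and 6 rose and 2 fell with both drugs. Pdgfrb was 4.14-fold lower with CFZ (edgeR adjusted p = 2.75e-05), and Pdgfra 5.99-fold lower with both drugs (edgeR adjusted p = 1.53e-06). Among the 6 that rose with both drugs, S100a4 was 3.84-fold higher (edgeR adjusted p = 1.54e-05). Of 6 leukocyte markers, 1 reached 1 CPM: their summed level was 0.923 to 1.35 CPM in DMSO, 1.27 to 1.63 in CFZ, 2.63 to 4.22 in DOX and 10.4 to 13.5 in CFZ-DOX. Hepatocyte markers summed to at most 1.26 CPM and endothelial markers to at most 4.40 CPM, while epithelial markers, mostly Krt14, summed to 61.4 to 91.0 CPM in DMSO, 113 to 189 in CFZ, 79.4 to 91.3 in DOX and 130 to 149 in CFZ-DOX. Krt14 was 2.07-fold higher with CFZ (edgeR adjusted p = 0.00067), and Cdh1, of the same list, 5.56-fold lower (edgeR adjusted p = 8.31e-05). Ribosomal protein genes took 3.91 to 4.40% of the counts without doxorubicin, 6.71 to 7.27% with DOX and 9.99 to 10.6% with CFZ-DOX. The third replicates of DOX and CFZ-DOX lay apart from their groups on the third principal component, at -60.6 and -24.6 against -7.14 to 6.66 and 32.6 to 43.0 for the others, and results are given without them where a call changed. The part of the marker levels and of these libraries in the results was not tested. In bulk RNA, fewer cells with a transcript and less of it per cell cannot be told apart.

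The genes lie on 3 chromosomes of the build GRCm39, all on the plus strand, and the spans given are those of whole genes in the deposited table. Abcb1a (ENSMUSG00000040584, chromosome 5, 8710077 to 8798575) and Abcb1b (ENSMUSG00000028970, chromosome 5, 8848147 to 8916315) are neighbours 49572 bases apart. Cbr1 (ENSMUSG00000051483, chromosome 16, 93402741 to 93407393) and Cbr3 (ENSMUSG00000022947, chromosome 16, 93480103 to 93487878) are likewise neighbours, 72710 bases apart. Abcc1 (ENSMUSG00000023088) spans chromosome 16, 14179422 to 14293601, and Abcg2 (ENSMUSG00000029802) spans chromosome 6, 58561508 to 58672661. Por (ENSMUSG00000005514) spans chromosome 5, 135698887 to 135764180. The paired genes could share reads: of the 50-base stretches of the Abcb1a transcript, 15.5% occurred in Abcb1b, and of those of Abcb1b, 18% occurred in Abcb1a. Cbr1 and Cbr3 shared 0.0842% and 0.0892%. Counts of the Abcb1 pair are therefore less certain than those of the Cbr pair, above all for Abcb1a, the far less abundant gene.

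The stretches before the starts of Cbr1 and Cbr3 are shown because these neighbours, of the same enzyme family, had different responses to carfilzomib, given below. They are the 250 bases before the RefSeq start on the build GRCm38.p6, plus strand, at chr16:93607587-93607836 for Cbr1 and chr16:93682969-93683218 for Cbr3. Capitals mark the heat shock element pair GAANNTTC, which reads alike on both strands.
Cbr1: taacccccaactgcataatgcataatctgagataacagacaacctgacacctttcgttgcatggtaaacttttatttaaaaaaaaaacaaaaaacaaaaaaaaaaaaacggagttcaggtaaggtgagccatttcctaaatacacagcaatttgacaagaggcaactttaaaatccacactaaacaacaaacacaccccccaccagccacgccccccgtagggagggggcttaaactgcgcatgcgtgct
Cbr3: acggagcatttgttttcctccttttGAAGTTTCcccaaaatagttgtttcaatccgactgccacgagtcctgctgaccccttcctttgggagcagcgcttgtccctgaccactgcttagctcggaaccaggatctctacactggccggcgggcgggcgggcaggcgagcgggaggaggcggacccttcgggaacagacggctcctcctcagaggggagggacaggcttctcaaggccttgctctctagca
The pair occurred in Cbr3, beginning 225 bases before the start, and not in the Cbr1 window. It was absent from the windows of Abcb1a, Abcb1b and Por, which were also called higher with carfilzomib, and from all Abcg2 windows. It occurred in 7.86% of all 32851 mouse windows, which hold 250 bases before and 50 after a start.

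The antioxidant response element core TGANNNNGC, searched on both strands, occurred in windows of 3 pumps, and the stretches that hold it are shown because the pumps did not respond alike. Abcb1a and Abcb1b carried it 26 and 38 bases after the start, at chr5:8567107-8567135 and chr5:8798168-8798196. Abcg2 carried it before 1 of its 3 RefSeq starts, at chr6:58584439-58584467. Capitals mark the core, which lies on the minus strand in Abcb1a and Abcg2.
Abcb1a: ctctttgtccGCGGAGTCAgacagaacaa
Abcb1b: ttgaagccgtaagaggcTGAGGCCGCtgc
Abcg2: cctaggacaaGCATATTCAaaccaccaca
The core occurred in 41.3% of all windows. Its stricter form TGACNNNGC, a subset of it, occurred in 12.4% of them and, among these genes, in Abcb1a only. The Cbr1, Cbr3 and Por windows held neither form, and Abcc1 had no window. A match is a description of letters and not a site of binding, and the starts used in these cells were not measured.

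Carfilzomib alone raised 5 of the 7 transcripts, namely Abcb1a, Abcc1, Cbr3, Abcb1b and Por, and lowered Abcg2, while Cbr1 did not pass the test. Levels of the 6 genes that passed did not overlap between the groups. In the same comparison 28.8% of all genes tested were called in either direction, 14.4% higher and 14.4% lower, and 56% had groups that did not overlap. The median log2 fold change of the 7 was 0.69, against -0.01 over all genes. Calls here and below are edgeR quasi-likelihood tests at a Benjamini-Hochberg adjusted p under 0.05 over all 16648 genes.

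**Figure D1:**
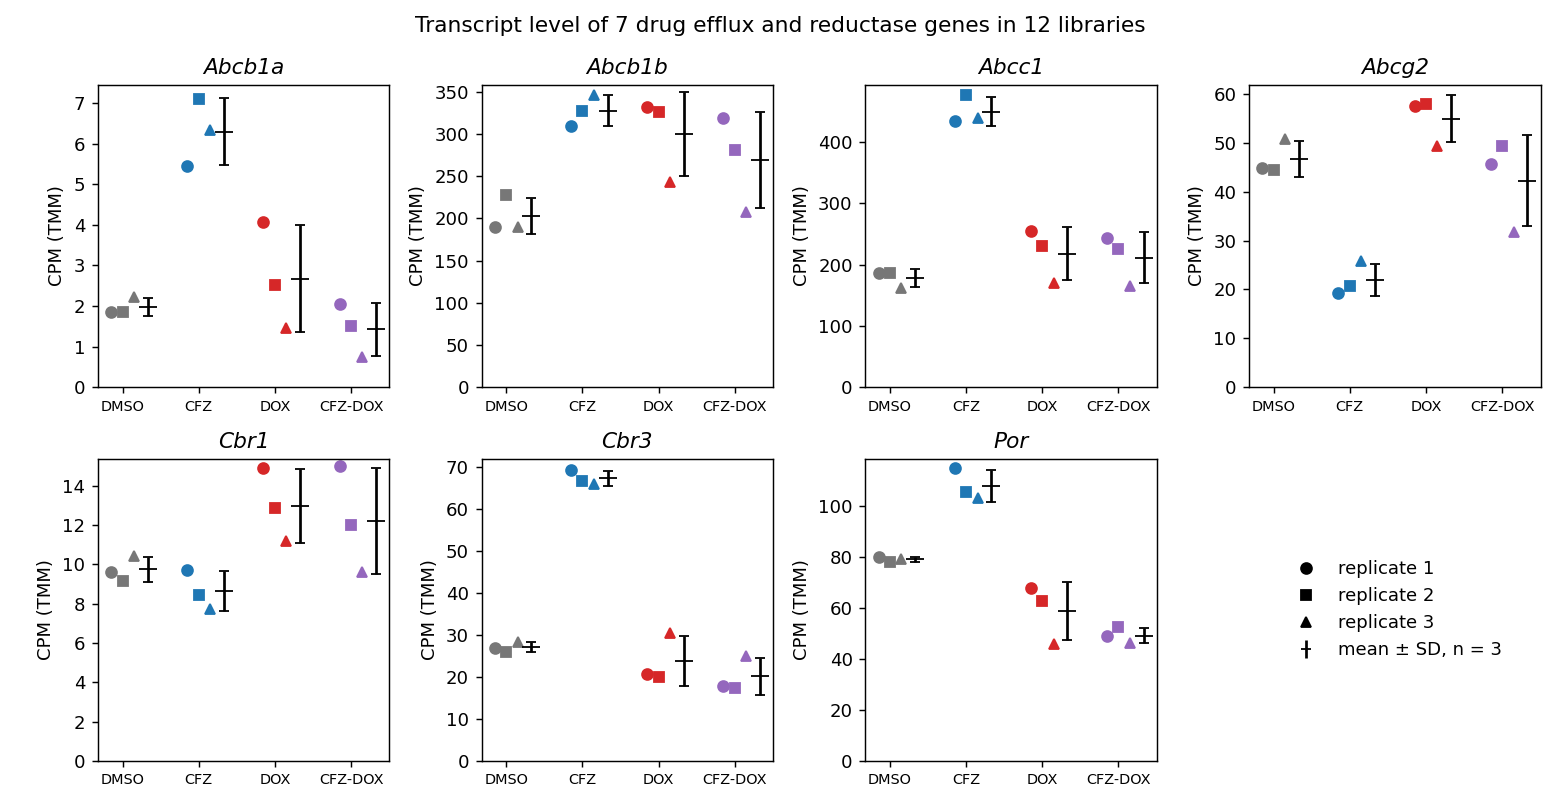
Level of each gene in CPM (TMM-scaled, linear axes from 0) in the 12 libraries, with symbols for replicate numbers and black bars for the mean ± SD of 3 libraries. With CFZ alone, Abcb1a, Abcb1b, Abcc1, Cbr3 and Por stand above DMSO and Abcg2 stands below it; in CFZ-DOX, Abcb1a, Abcc1, Cbr3 and Por stand below all CFZ libraries.

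Abcb1a was the scarcest of the 7. Its level was 1.85, 1.86 and 2.23 CPM in DMSO replicates 1, 2 and 3, from 68 to 81 counts, and 5.45, 7.11 and 6.33 CPM in CFZ. It was 4.06, 2.51 and 1.45 CPM in DOX and 2.05, 1.498 and 0.747 CPM in CFZ-DOX, the last from 22 counts. All 3 CFZ libraries lay above the other 9, whereas DOX and CFZ-DOX each overlapped DMSO. CFZ raised Abcb1a 3.18-fold (log2 fold change 1.67, SE 0.35, edgeR adjusted p = 0.00274). DOX against DMSO gave 0.43 on the log2 scale (95% interval -0.32 to 1.19, edgeR adjusted p = 0.289), but without DOX replicate 3 it gave 0.83 and passed (adjusted p = 0.0305). With both drugs Abcb1a was 4.41-fold lower than with CFZ alone (log2 -2.14, SE 0.37, edgeR adjusted p = 9.75e-05). Against DOX alone, CFZ-DOX gave -0.90 (SE 0.37, edgeR adjusted p = 0.0904). That difference passed with the replicate number as a block (-0.89, adjusted p = 0.0497), without CFZ-DOX replicate 1 (-1.28, adjusted p = 0.0441) and without DOX replicate 3 (-1.25, adjusted p = 0.0164).

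Abcb1b was far more abundant than its neighbour, and its response to CFZ was smaller on the log2 scale. Its level was 190, 227 and 190 CPM in DMSO and 310, 327 and 346 CPM in CFZ. It was 332, 326 and 243 CPM in DOX and 319, 281 and 207 CPM in CFZ-DOX. Every CFZ and DOX library lay above every DMSO library, and CFZ-DOX overlapped DMSO through replicate 3. The rise was 1.62-fold with CFZ (log2 0.69, SE 0.17, edgeR adjusted p = 0.00812). With DOX it was 1.48-fold (log2 0.57, SE 0.17, edgeR adjusted p = 0.00994), a direction that turned when libraries were scaled to ribosomal protein genes (log2 -0.32). With both drugs it was 1.33-fold (log2 0.41, SE 0.17, edgeR adjusted p = 0.0442), and that too turned under ribosomal protein scaling (-1.26). The call for both drugs held only when DMSO replicate 2, DOX replicate 3 or CFZ-DOX replicate 3 was the library left out, and the other 9 such fits gave adjusted p from 0.0546 to 0.23. CFZ-DOX did not differ from CFZ by the test (log2 -0.28, 95% interval -0.65 to 0.09, edgeR adjusted p = 0.148), except without CFZ-DOX replicate 1 (-0.44, adjusted p = 0.0422).

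Abcc1 rose with carfilzomib and not detectably with doxorubicin. It measured 187, 187 and 161 CPM in DMSO and 433, 477 and 438 CPM in CFZ. It measured 254, 230 and 169 CPM in DOX and 243, 226 and 165 CPM in CFZ-DOX. The CFZ libraries stood above the other 9, and the remaining groups overlapped one another. CFZ raised Abcc1 2.52-fold (log2 1.34, SE 0.18, edgeR adjusted p = 7.95e-05), and adding DOX to CFZ left it 2.13-fold below CFZ alone (log2 -1.09, SE 0.18, edgeR adjusted p = 5.71e-05). DOX against DMSO gave a log2 value of 0.29 (95% interval -0.09 to 0.66, edgeR adjusted p = 0.156), and without DOX replicate 3 it gave 0.54 (adjusted p = 0.01). Both drugs against DMSO gave 0.25 (edgeR adjusted p = 0.212), and without CFZ-DOX replicate 3 they gave 0.40 (adjusted p = 0.0327).

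Abcg2 was the only pump, and the only 1 of the 7 genes, that fell with carfilzomib. Its level was 44.8, 44.5 and 50.9 CPM in DMSO and 19.4, 20.8 and 25.7 CPM in CFZ. It was 57.5, 58.0 and 49.4 CPM in DOX and 45.8, 49.4 and 31.7 CPM in CFZ-DOX. All CFZ libraries lay below the other 9, and CFZ-DOX overlapped DMSO. The fall with CFZ was 2.13-fold (log2 -1.09, SE 0.17, edgeR adjusted p = 0.000308). CFZ-DOX was 1.93-fold above CFZ alone (log2 0.94, SE 0.17, edgeR adjusted p = 0.000155), a difference that turned to -0.62 under ribosomal protein scaling. Against DMSO on the TMM scale, DOX gave 0.23 (edgeR adjusted p = 0.229) and CFZ-DOX gave -0.14 (edgeR adjusted p = 0.449), so neither passed. Other scalings changed both. DOX passed higher under upper-quartile scaling (0.61, adjusted p = 0.0069) and lower under ribosomal protein scaling (-0.65, adjusted p = 0.00426). CFZ-DOX passed lower under library-size scaling (-0.52, adjusted p = 0.0106) and ribosomal protein scaling (-1.81, adjusted p = 5.53e-07).

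Cbr1 showed no carfilzomib response past the test, and its highest levels were in libraries with doxorubicin. It stood at 9.61, 9.16 and 10.4 CPM in DMSO and 9.74, 8.45 and 7.74 CPM in CFZ. It stood at 14.9, 12.9 and 11.2 CPM in DOX and 15.01, 12.02 and 9.61 CPM in CFZ-DOX. The DOX libraries all lay above DMSO, and CFZ and CFZ-DOX overlapped DMSO. CFZ against DMSO gave a log2 value of -0.17 (95% interval -0.57 to 0.23, edgeR adjusted p = 0.534). DOX gave 0.42 (SE 0.18, edgeR adjusted p = 0.0595), which passed with the replicate number as a block (0.40, adjusted p = 0.033), without DOX replicate 3 (0.61, adjusted p = 0.0105) and without CFZ-DOX replicate 3 (0.42, adjusted p = 0.0314). DOX also passed with DESeq2 (0.44, adjusted p = 0.0217), DESeq2-type size factors (0.44, adjusted p = 0.039) and upper-quartile scaling (0.79, adjusted p = 0.00159). So it did with a minimum count of 50 (0.54, adjusted p = 0.0147) and only the groups compared (0.44, adjusted p = 0.0422). Under ribosomal protein scaling Cbr1 was instead called lower with DOX (-0.48, adjusted p = 0.0291). CFZ-DOX was 1.41-fold above CFZ (log2 0.50, SE 0.19, edgeR adjusted p = 0.0244), which turned to -1.08 under ribosomal protein scaling. That call was lost without CFZ replicate 2, CFZ replicate 3 or CFZ-DOX replicate 1 (adjusted p 0.0816 to 0.174). Against DMSO, CFZ-DOX gave 0.33 (edgeR adjusted p = 0.124), and 0.47 without CFZ-DOX replicate 3 (adjusted p = 0.0267).

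Cbr3, by contrast, rose with carfilzomib by about as much as Abcc1. It measured 27.0, 25.9 and 28.4 CPM in DMSO and 69.3, 66.6 and 66.1 CPM in CFZ, the tightest group of the 4 for this gene relative to its mean. It measured 20.7, 20.1 and 30.5 CPM in DOX and 17.8, 17.4 and 25.1 CPM in CFZ-DOX. CFZ lay above everything else, DOX overlapped DMSO, and CFZ-DOX lay below DMSO. On the TMM scale the third replicates were the highest of the DOX and CFZ-DOX groups for Cbr3, and the lowest of them for Abcb1a, Abcb1b, Abcc1, Abcg2, Cbr1 and Por. Part of this order depends on the scaling. Per library total, DOX replicate 3 was the highest of its group for Abcg2 (57.9 against 50.6 and 57.8 CPM) and not the lowest for Cbr1. CFZ-DOX replicate 3 was then the highest of its group for Por (48.2 against 35.4 and 44.4 CPM). CFZ raised Cbr3 2.49-fold (log2 1.31, SE 0.18, edgeR adjusted p = 0.000103). With both drugs it was 3.34-fold below CFZ alone (log2 -1.74, SE 0.18, edgeR adjusted p = 9.18e-07). Against DMSO, both drugs gave a fall of 1.34-fold (log2 -0.43, SE 0.18, edgeR adjusted p = 0.0428), which turned to 0.06 under upper-quartile scaling. That call was lost without DMSO replicate 1, 2 or 3 or CFZ-DOX replicate 1 or 2 (adjusted p 0.0524 to 0.13), and with DESeq2 (adjusted p = 0.145). DOX alone gave -0.19 (edgeR adjusted p = 0.362), and -0.45 without the third replicates of both DOX and CFZ-DOX (adjusted p = 0.000398).

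On the TMM scale Por rose slightly with carfilzomib and fell in both doxorubicin groups. It stood at 79.9, 77.8 and 79.0 CPM in DMSO and 115, 105 and 103 CPM in CFZ. It stood at 67.5, 62.5 and 45.8 CPM in DOX and 48.7, 52.3 and 46.2 CPM in CFZ-DOX. The CFZ libraries lay above DMSO and the DOX and CFZ-DOX libraries lay below it, with no overlap. CFZ raised Por 1.37-fold (log2 0.45, SE 0.14, edgeR adjusted p = 0.0245), the weakest call of that comparison. It did not survive leaving out any of the 6 DMSO and CFZ libraries (adjusted p 0.0522 to 0.0908), and it passed in 2 of 5 scalings. DOX lowered Por 1.35-fold (log2 -0.43, SE 0.14, edgeR adjusted p = 0.0134), but not past the test without DOX replicate 3 (-0.18, adjusted p = 0.186). That call was also lost without a filter (-0.39, adjusted p = 0.0713), with a minimum count of 50 (-0.30, adjusted p = 0.0527) and under upper-quartile scaling (-0.049, adjusted p = 0.781). With both drugs Por was 1.61-fold below DMSO (log2 -0.68, SE 0.14, edgeR adjusted p = 0.000436) and 2.19-fold below CFZ (log2 -1.13, SE 0.14, edgeR adjusted p = 4.3e-06). The difference from DMSO did not pass under upper-quartile scaling (-0.185, adjusted p = 0.273). Against DOX alone, CFZ-DOX gave -0.26 (edgeR adjusted p = 0.194), and -0.46 without DOX replicate 3 (adjusted p = 0.0154).

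**Figure D2:**
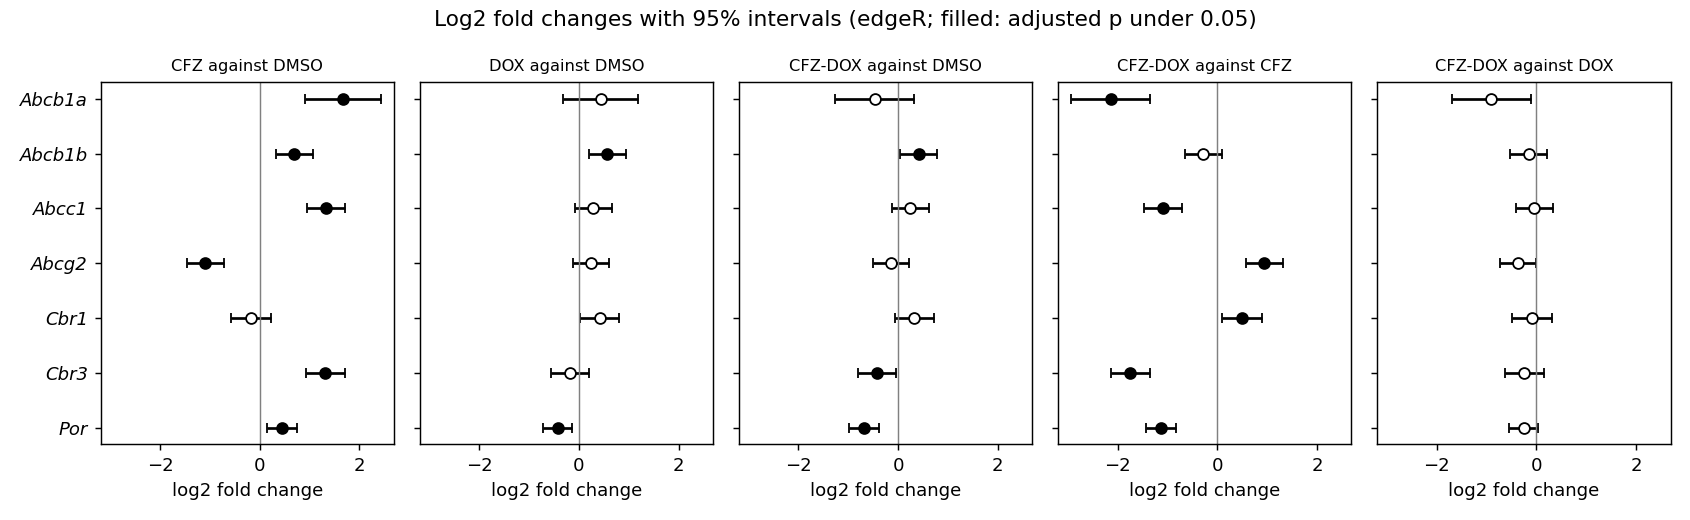
Log2 fold change of each gene in the 5 comparisons between groups, with 95% intervals from edgeR; filled points passed at an adjusted p under 0.05 and open points did not. CFZ against DMSO has 6 filled points, and CFZ-DOX against DOX has none.

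Doxorubicin alone moved few of these genes past the test, in a comparison in which most genes tested moved. Abcb1b was called higher and Por lower, and the other 5 were not called. Over all genes 67.4% were called in this comparison, 36.1% higher and 31.3% lower. Groups did not overlap for 3 of the 7 (Abcb1b, Cbr1 and Por) and for 72.5% of all genes. Counting libraries 1 and 2 of the doxorubicin groups only, a choice made after the data were seen, 5 members were higher (Abcb1a, Abcb1b, Abcc1, Abcg2 and Cbr1) and 2 lower (Cbr3 and Por). With the replicate block 2 were higher, Cbr1 joining Abcb1b. The 67.4% is from the fit to all 12 libraries without a block, so neither of these counts has a matching share beside it. With both drugs against DMSO, Abcb1b was called higher and Cbr3 and Por lower, beside 75% of all genes, 39.3% higher and 35.7% lower. Groups did not overlap for 2 of the 7 (Cbr3 and Por) and for 76.4% of all genes. These comparisons share their DMSO libraries.

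Adding doxorubicin to carfilzomib left Abcb1a, Abcc1, Cbr3 and Por lower and Abcg2 and Cbr1 higher than with carfilzomib alone. The 4 falls passed in all 5 scalings, and the 2 rises did not: both turned under ribosomal protein scaling. In this comparison 77.3% of all genes were called, 40.4% higher and 36.9% lower, and groups did not overlap for 5 of the 7 and for 77.8% of all genes. Adding carfilzomib to doxorubicin called none of the 7 with edgeR, DESeq2 or limma-voom, whereas 22.4% of all genes were called with edgeR, 10.3% higher and 12% lower. At an unadjusted p under 0.05 there were 2 members (Abcb1a and Abcg2, both lower). The share of all genes at that looser threshold was not counted, so the 22.4% is no match for these 2. None of the 7 had groups that did not overlap, against 31.5% of all genes. Same-numbered libraries of these 2 groups deviated together, and the fit with a replicate block called Abcb1a lower (-0.89, adjusted p = 0.0497). Within same-numbered pairs on the TMM scale, Abcb1a, Abcb1b, Abcc1, Abcg2 and Cbr3 were lower in CFZ-DOX in all 3, and Cbr1 and Por in 2 of 3. The share of all genes lower in all 3 pairs was not counted, so this is a description only. It also depends on the scaling: under upper-quartile scaling Abcc1 was at 0.0797 in CFZ-DOX against DOX. The intervals of that comparison do not exclude sizeable differences: for Abcb1a it ran from -1.69 to -0.12 on the log2 scale, and for Abcc1 from -0.42 to 0.33.

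Whether the drugs acted additively was tested by the interaction, the log2 change with both drugs minus the sum of the single-drug changes. It was below 0 for 5 of the 7 genes and above 0 past the test for none, though Abcg2 passed above 0 in several alternatives given below. In the same test 19.6% of all genes were called, 11.2% below 0 and 8.46% above. For Abcb1a the single changes summed to 2.10 and the change with both was -0.47, an interaction of -2.57 (SE 0.51, edgeR adjusted p = 0.00344). For Cbr3 the sum was 1.13 and the change with both was -0.43 (interaction -1.55, SE 0.25, edgeR adjusted p = 0.00106). For Abcc1 the sum was 1.62 and the change with both was 0.25 (interaction -1.38, SE 0.25, edgeR adjusted p = 0.00191). These 3 passed in all 5 scalings and in each fit without 1 library.

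The interactions of Abcb1b and Por were smaller. For Abcb1b it was -0.85 (SE 0.25, edgeR adjusted p = 0.0258), lost without DMSO replicate 1 or 3, CFZ replicate 2 or 3 or DOX replicate 2 (adjusted p 0.0512 to 0.0688). For Por it was -0.71 (SE 0.20, edgeR adjusted p = 0.0212), lost without DMSO replicate 2 or 3, CFZ replicate 1 or DOX replicate 2 (adjusted p 0.0503 to 0.0543). Both calls were also lost under upper-quartile scaling (Abcb1b -0.68, adjusted p = 0.0778, and Por -0.54, adjusted p = 0.0842). For Abcg2 the interaction was 0.71 (SE 0.24, edgeR adjusted p = 0.0502), just outside the threshold, and it passed without CFZ replicate 3 (0.82, adjusted p = 0.0478) and without CFZ-DOX replicate 3 (0.88, adjusted p = 0.00391). It also passed with DESeq2 (0.77, adjusted p = 0.0141), DESeq2-type size factors (0.77, adjusted p = 0.0323), upper-quartile scaling (0.89, adjusted p = 0.0243), a minimum count of 50 (0.80, adjusted p = 0.0235) and the replicate block (0.71, adjusted p = 0.0339). For Cbr1 it was 0.08 (95% interval -0.48 to 0.64, edgeR adjusted p = 0.856).

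**Figure D3:**
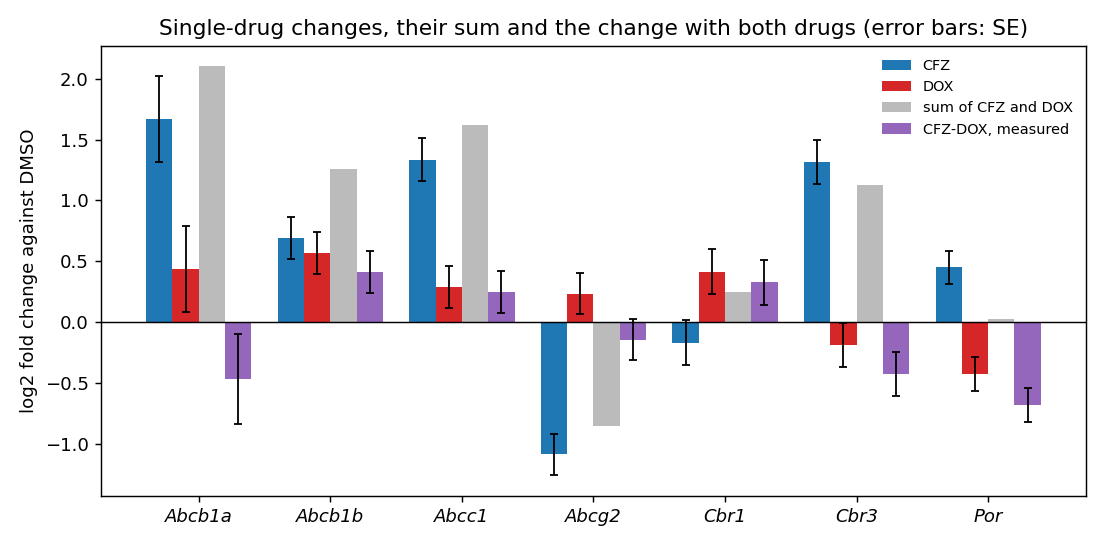
Log2 fold change against DMSO with CFZ, with DOX and with both drugs (error bars: SE), beside the sum of the single-drug values in grey. The measured change with both drugs is below the sum for Abcb1a, Abcb1b, Abcc1, Cbr3 and Por and above it for Abcg2 and Cbr1.

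Levels depend on the scaling once doxorubicin is present, and ribosomal protein genes took a larger share of the counts there. Scaling to 78 ribosomal protein genes shifted the all-gene median by -0.10 on the log2 scale with CFZ, by -0.87 with DOX, by -1.64 for CFZ-DOX against DMSO, -1.54 for CFZ-DOX against CFZ, -0.77 for CFZ-DOX against DOX and -0.68 for the interaction. Upper-quartile scaling moved it by 0.38 with DOX, 0.50 for CFZ-DOX against DMSO, 0.54 for CFZ-DOX against CFZ, 0.12 for CFZ-DOX against DOX and 0.17 for the interaction. Library-size scaling moved it by -0.12 with DOX, -0.35 for CFZ-DOX against DMSO, -0.26 for CFZ-DOX against CFZ, -0.22 for CFZ-DOX against DOX and -0.14 for the interaction. DESeq2-type size factors moved it by 0.10 for CFZ-DOX against DMSO and by less elsewhere. Over all genes the calls for DOX went from 6010 higher and 5213 lower to 2236 and 9065 with ribosomal protein scaling. For CFZ they went from 2402 and 2395 to 1377 and 2365. Of the 7 members, 4 were higher and 1 lower with CFZ in all 5 scalings, and none was called the same way in all 5 for DOX or CFZ-DOX against DMSO. Under ribosomal protein scaling Abcb1b with DOX, at -0.32, lay above the all-gene median of -0.73, as it did on the TMM scale (0.57 against 0.14). Abcb1a, Abcc1, Abcg2 and Cbr1 lay above that median too (-0.51, -0.61, -0.65 and -0.48), and Cbr3 and Por below it. A rescaling shifts all genes nearly alike, so a place relative to the median is no separate evidence of a rise.

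**Figure D4:**
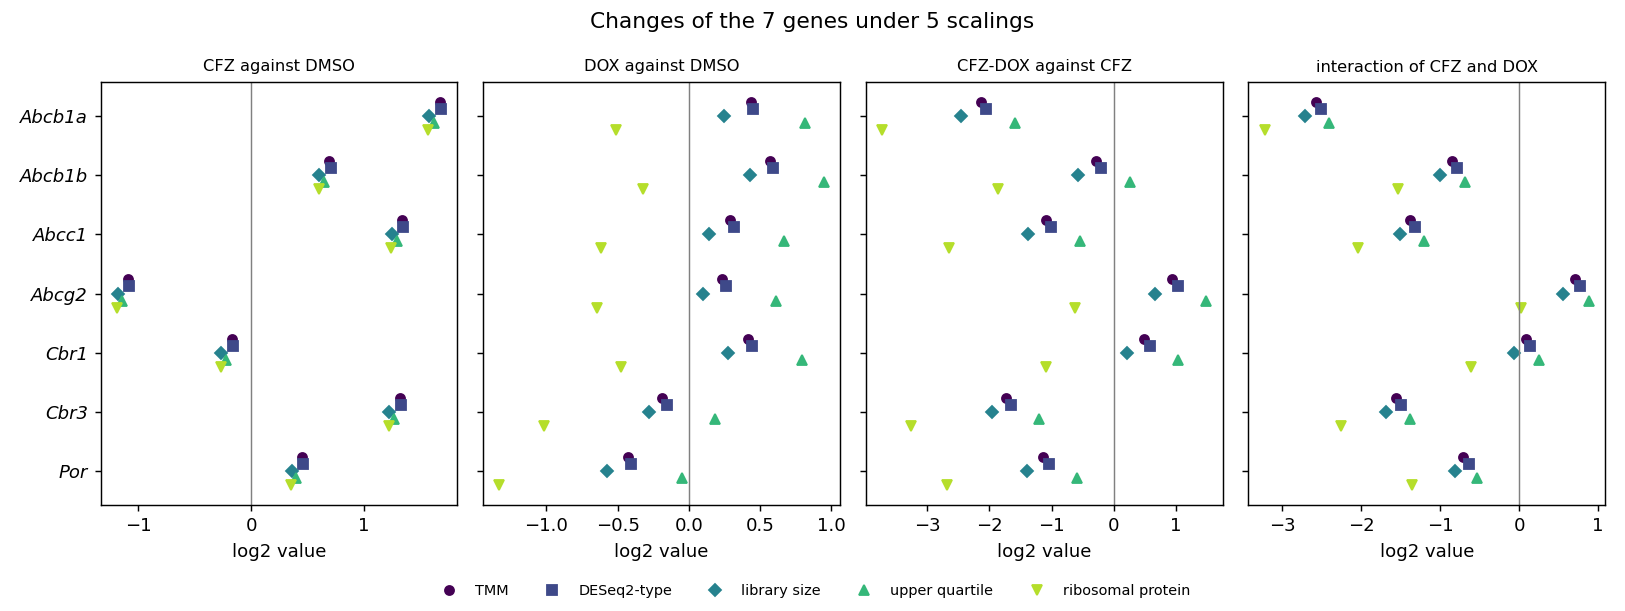
Log2 values of the 7 genes under 5 scalings in 4 comparisons, 1 symbol per scaling. The symbols lie close together for CFZ against DMSO and spread for the comparisons with doxorubicin, where ribosomal protein scaling gives the lowest values.

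Ratios of neighbouring genes within a library do not depend on the scaling. The log2 ratio of Abcb1a to Abcb1b, in counts per exon length, was -6.13 ± 0.26 (SD, n = 3) in DMSO, -5.16 ± 0.16 in CFZ, -6.38 ± 0.53 in DOX and -7.11 ± 0.43 in CFZ-DOX. It was higher in every CFZ library and lower in every CFZ-DOX library than in any DMSO library, and DOX overlapped DMSO. The log2 ratio of Cbr3 to Cbr1 was 2.50 ± 0.03 (SD, n = 3) in DMSO, 3.99 ± 0.13 in CFZ, 1.88 ± 0.52 in DOX and 1.75 ± 0.59 in CFZ-DOX. As a fold this was 5.53 to 5.75 in DMSO and 14.5 to 17.4 in CFZ. The third replicates of DOX and CFZ-DOX had Cbr3 over Cbr1 at 5.57 and 5.32, near DMSO, whereas the other replicates had 2.82 to 3.17 and 2.42 to 2.95. Two-sided exact permutation tests of the group means against DMSO gave p = 0.1 for CFZ and CFZ-DOX in both ratios, the smallest p that 3 against 3 libraries allow, and p = 0.5 (Abcb1 ratio) and 0.2 (Cbr ratio) for DOX, with 6 comparisons in all and none passing.

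**Figure D5:**
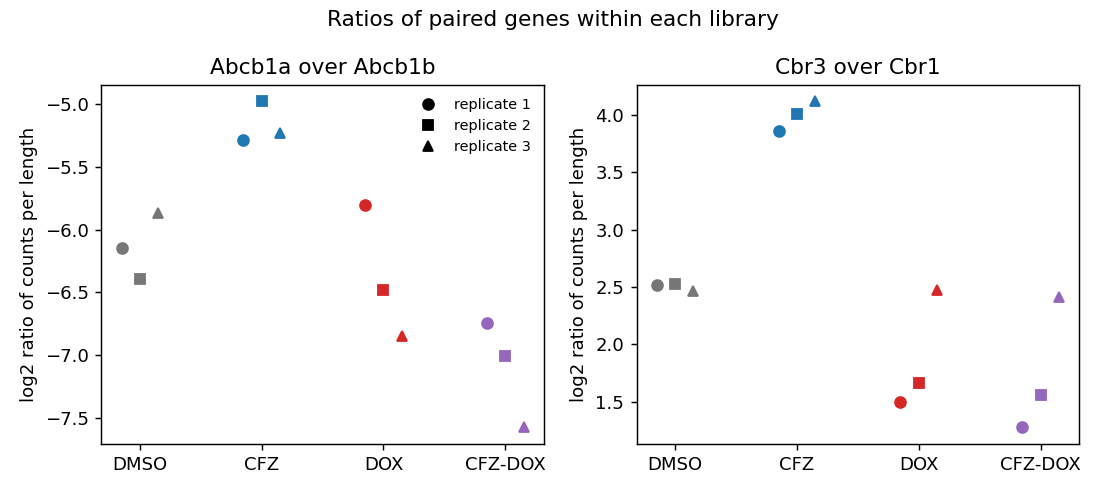
Log2 ratio of counts per exon length of Abcb1a over Abcb1b (left) and Cbr3 over Cbr1 (right) in each of the 12 libraries, with symbols for replicate numbers. CFZ libraries are the highest in both panels; in the right panel the third replicates of DOX and CFZ-DOX, at 2.48 and 2.41, lie near DMSO.

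Per length, Abcb1b led in DMSO, DOX and CFZ-DOX, and Cbr3 led in CFZ. In DMSO the levels were 25.4 CPM per kb for Abcb1b, 21.6 for Cbr3, 19.6 for Por, 11.8 for Abcc1, 5.73 for Abcg2, 3.81 for Cbr1 and 0.361 for Abcb1a. Abcb1b, at 25.4 ± 2.69 CPM per kb (SD, n = 3), and Cbr3, at 21.6 ± 0.997, differed by little more than their spread. In CFZ the levels were 53.7 CPM per kb for Cbr3, 41.0 for Abcb1b, 29.8 for Abcc1, 26.8 for Por, 3.38 for Cbr1, 2.69 for Abcg2 and 1.15 for Abcb1a. Abcg2 therefore fell from the fifth to the sixth place, behind Cbr1, though those levels, 2.69 ± 0.41 and 3.38 ± 0.40 CPM per kb, are close. In DOX, Por and Abcc1 (14.6 ± 2.83 and 14.4 ± 2.89 CPM per kb) did not differ beyond their spread, and in CFZ-DOX neither did Abcg2 and Cbr1 (5.19 ± 1.15 and 4.78 ± 1.06 CPM per kb).

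Other genes of drug export and reduction were counted from lists chosen by function. Beside these counts, 14.4% of all genes were called higher and 14.4% lower with CFZ, 36.1% and 31.3% with DOX, and 39.3% and 35.7% with both drugs. For the interaction, 8.46% were called above and 11.2% below 0. These shares are on the TMM scale. With doxorubicin the counts turned with the scaling, so they are given as higher and lower on the TMM scale and then under ribosomal protein and upper-quartile scaling. Calls over all 16648 genes turned as well. Ribosomal protein scaling called 2236 higher and 9065 lower with DOX, 1858 and 11407 with both drugs, and 250 and 5194 for the interaction. Upper-quartile scaling called 8069 and 3713 with DOX, 8469 and 4121 with both drugs, and 2195 and 1321 for the interaction. Of 11 other exporters 9 were tested: with CFZ 5 rose and 0 fell, with DOX 3 rose and 1 fell, with both drugs 4 rose and 2 fell, and 1 interaction was above and 3 below 0. Ribosomal protein scaling gave 2 and 5 with DOX, 2 and 6 with both and 0 and 7 for the interaction, and upper-quartile scaling gave 6 and 0, 6 and 0, and 1 and 1. The TMM median log2 fold change with CFZ was 0.73, against -0.01 over all genes. Abcc4, which encodes the exporter MRP4, was at 31.5 CPM in DMSO, 76.9 in CFZ, 23.6 in DOX and 25.6 in CFZ-DOX (means of 3), with an edgeR adjusted p of 2.24e-05 for CFZ and an interaction of -1.17 (SE 0.21, edgeR adjusted p = 0.00164). Abcb4, the phospholipid exporter that lies 27402 bases after Abcb1b, went from 0.131 CPM in DMSO to 0.687 in CFZ, 2.48 in DOX and 3.96 in CFZ-DOX, and Abcc2, which encodes MRP2, from 0.0778 to 0.462, 1.62 and 3.02. Both passed against DMSO in all 3 treatments (largest edgeR adjusted p = 0.0015), in every scaling, and their low DMSO levels rest on few counts. The 4 uptake carriers of organic cations were all below the filter, so no change in them was detectable at this depth.

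Among 14 other carbonyl and aldo-keto reductases, CFZ raised 3 and lowered 1, DOX raised 8 and lowered 1, and both drugs raised 8 and lowered 2, while 1 interaction was above and 2 below 0. Those counts became 1 and 3 with DOX, 0 and 8 with both and 0 and 6 for the interaction under ribosomal protein scaling, and 9 and 0, 10 and 1, and 1 and 1 under upper-quartile scaling. On the TMM scale their medians were 0.07, 0.88, 0.98 and -0.02, against -0.01, 0.14, 0.09 and 0.04 over all genes. Akr1b3, aldose reductase, was at 113 CPM in DMSO, 205 in CFZ, 259 in DOX and 399 in CFZ-DOX (edgeR adjusted p against DMSO 0.000269, 2.9e-06 and 4.15e-08). Its log2 values stayed above 0 in all 5 scalings, but the calls for DOX and for both drugs held in 4 of the 5. The lowest values were 0.33 with DOX and 0.19 with both drugs. Akr1c14 fell 5.67-fold with CFZ (log2 -2.50, SE 0.27, edgeR adjusted p = 1.28e-05). Of 10 tested among 13 other quinone reductases, CFZ raised 3 and lowered 1, DOX raised 5 and lowered 0, and both drugs raised 5 and lowered 1, with 1 interaction above and 1 below 0. Ribosomal protein scaling gave 0 and 4 with DOX, 0 and 9 with both and 0 and 5 for the interaction, and upper-quartile scaling 7 and 0, 8 and 0, and 2 and 1. The medians of these 10 on the TMM scale were 0.37 with CFZ, 0.63 with DOX, 0.71 with both and -0.32 for the interaction. Txnrd1, thioredoxin reductase, had a pattern of means like that of Cbr3, at 497 CPM in DMSO, 1361 in CFZ, 422 in DOX and 355 in CFZ-DOX (interaction -1.71, SE 0.20, edgeR adjusted p = 0.000108). Nqo1, which reduces quinones by electron pairs, did not: it was at 66.3, 123, 107 and 123 CPM.

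Of 6 enzymes and carriers that take electrons from Por, CFZ raised 3 and lowered 2, and DOX and both drugs each raised 1 and lowered 3, with 1 interaction below 0. Under ribosomal protein scaling the counts were 0 and 5 with DOX, 0 and 6 with both and 0 and 4 for the interaction, and under upper-quartile scaling 1 and 2, 3 and 3, and 0 and 1. Their TMM medians were 0.36 with CFZ, -0.44 with DOX and -0.40 with both. Hmox1, the inducible heme oxygenase, went from 37.1 CPM in DMSO to 1426 in CFZ, and was at 26.3 in DOX and 41.3 in CFZ-DOX (CFZ log2 5.26, SE 0.31, edgeR adjusted p = 9.91e-08, and interaction -4.61, SE 0.39, edgeR adjusted p = 1.17e-05). Sqle, the squalene epoxidase, went from 227 CPM in DMSO and 238 in CFZ to 50.2 in DOX and 39.3 in CFZ-DOX (DOX log2 -2.18, SE 0.28, edgeR adjusted p = 1.24e-05). Among 14 regulators of transporter and reductase genes 12 were tested: CFZ raised 9 and lowered 0, DOX raised 2 and lowered 4, both drugs raised 3 and lowered 5, and 6 interactions were below 0 and 0 above. With ribosomal protein scaling these were 7 and 0 for CFZ, 1 and 9 with DOX, 1 and 10 with both and 0 and 8 for the interaction, and with upper-quartile scaling DOX gave 4 and 2, both drugs 5 and 4 and the interaction 1 and 5. Their median with CFZ was 0.77 and their median interaction was -0.85, against -0.01 and 0.04 over all genes. Nfe2l2, which encodes NRF2, was at 87.6 CPM in DMSO, 173 in CFZ, 50.7 in DOX and 37.5 in CFZ-DOX (interaction -1.42, SE 0.27, edgeR adjusted p = 0.00281). Keap1, its inhibitor, was at 44.9, 77.7, 13.6 and 10.9 CPM in the same order. The lists were not tested as sets.

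Next to the members, some genes could contribute reads if the counting ignored strand, which is not stated. Gm5106, on the minus strand, shares 143 exon bases with Abcb1b and was at 1.34 CPM in DMSO and 2.39 in CFZ, far below Abcb1b. Gm42686, also on the minus strand, shares 553 exon bases with Abcb1a and held at most 2 counts in a library. No other gene of the table shared exon bases with a member. Gm49528, 4161 bases after Abcc1 on the minus strand, was at 0.178 CPM in DMSO, 0.870 in CFZ, 2.86 in DOX and 3.38 in CFZ-DOX (edgeR adjusted p = 0.000623, 5.26e-07 and 1.88e-07 against DMSO), unlike Abcc1. Tmem120a, 159 bases after Por, was at 60.0 CPM in DMSO, 47.2 in CFZ, 60.0 in DOX and 49.6 in CFZ-DOX.

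The genes whose log2 CPM over the 12 libraries was most like each member, among those of at least 5 CPM on average, are named as a description. The libraries share their treatments, so any gene that follows the groups scores high. For Cbr3 these were Ube2o, Orc4 and Jak2 (Pearson r 0.990, 0.985 and 0.985), for Por Klhl2, Mmadhc and Nt5dc1 (0.989, 0.987 and 0.985), and for Abcc1 Psmb2, Gbe1 and Ubxn8 (0.987, 0.981 and 0.978). For Abcg2 they were Cav1, Hebp1 and H2afy2 (0.976, 0.975 and 0.971), and for Abcb1a Nup93, Rnf11 and Wars (0.970, 0.967 and 0.964). For Cbr1 they were R3hdm4, Rcn1 and Fam114a1 (0.967, 0.963 and 0.963), and for Abcb1b Psma2, Hars and Hprt (0.950, 0.947 and 0.945). Among the members themselves r was highest for Abcb1a with Abcc1 (0.891) and lowest for Abcg2 with Cbr3 (-0.886), over the same 12 libraries.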

How the data were processed

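The table that the authors deposited holds unnormalised read counts for each Ensembl gene, with its position and exon length. It was made on GRCm39 with STAR 2.7.9a, Trimmomatic 0.39, Subread 2.0.2 and its featureCounts, per the submitters' processing notes. The annotation release, strand setting and handling of read pairs are not given in the sources used here. Symbols came from an older annotation, used for names only, which matched 52073 IDs (91.4%). Promoter windows are RefSeq's, on GRCm38.p6, and 6 of the 7 genes had 1 or more.

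Counts were fitted with edgeR 4.0.16 (R 4.3.3) in 1 quasi-likelihood model with 4 group means over the 12 libraries, after filterByExpr (minimum count 10, total 15) and TMM scaling, with a prior count of 0.125. The fit was tested on simulated data. SE was derived from each log2 fold change and its F statistic. Alternatives were 4 other scalings, no filter or a minimum count of 50, DESeq2 1.42.0, limma-voom (limma 3.58.1), the replicate number as a block, only the groups compared, and each library left out. Leaving out the third replicates of DOX and CFZ-DOX together was added after seeing the data.

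Replicate numbers come from the titles, which do not say that they mark a shared culture. Deviations of same-numbered libraries from their group means correlated at over 0.1 in every pair of DMSO with CFZ (0.303 to 0.416), DMSO with DOX (0.207 to 0.256), CFZ with DOX (0.181 to 0.255) and DOX with CFZ-DOX (0.353 to 0.654), and not in every pair of CFZ-DOX with DMSO or CFZ (0.0186 to 0.294). No replicate pair agreed within sampling noise (chi-square per degree of freedom 13.8 to 123).

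The members and lists were chosen with earlier results of these data known. All members are named. From each list, called genes of at least 1 CPM with the 3 largest changes per comparison could be named. Txnrd1 and Nqo1 as a contrast to Cbr3 were chosen among them after their values were seen.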

Additional observations from a re-analysis of the deposited data

Results flagged for a closer look

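For 5 of the 7 genes the effect of doxorubicin differed between cells with and without carfilzomib, by the edgeR test of the interaction, beside 19.6% of all genes, 11.2% below 0 and 8.46% above. The interaction, on the log2 scale, was -2.57 for Abcb1a, -1.55 for Cbr3, -1.38 for Abcc1, -0.85 for Abcb1b and -0.71 for Por. In each case the level with both drugs was below what the single-drug changes add up to. The values for Abcb1b and Por lost the call in some fits without 1 library and under upper-quartile scaling, as given above.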

How the results depend on the processing

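With CFZ against DMSO, Abcb1a, Abcb1b, Abcc1, Abcg2 and Cbr3 kept direction and call in every alternative run, and limma-voom changed none of the 42 calls of members. Depth limited Abcb1a most, with 22 counts in its lowest library. For the changes below, the cause was not tested. Members called are given as higher and lower. Beside them, calls over all genes are given for library-size, upper-quartile and ribosomal protein scaling, and not for the other alternatives. Leaving out 1 library at a time gave 4 to 5 and 1 to 1 for CFZ, 1 to 4 and 0 to 1 with DOX, 0 to 3 and 1 to 2 with both drugs against DMSO, 1 to 2 and 4 to 5 for CFZ-DOX against CFZ, 0 to 0 and 0 to 2 for CFZ-DOX against DOX, and 0 to 1 and 3 to 5 for the interaction. Log2 values that turned direction in such fits ranged from -0.0153 to 0.828 for Abcb1a with DOX, from -0.278 to 0.025 for Abcg2 in CFZ-DOX against DMSO, from -0.242 to 0.107 for Abcc1 and from -0.276 to 0.0572 for Cbr1 in CFZ-DOX against DOX, and from -0.106 to 0.227 for the Cbr1 interaction. The libraries whose omission turned them were DOX 1 (Abcb1a, Abcc1 and Cbr1), CFZ-DOX 3 (Abcg2, Abcc1 and Cbr1) and, for the Cbr1 interaction, CFZ-DOX 1, CFZ 3 and DOX 3. Without the third replicates of DOX and CFZ-DOX together, DOX gave 5 and 2, CFZ-DOX against DMSO 3 higher, CFZ-DOX against DOX 2 lower and the interaction 1 higher. With the replicate block, DOX gave 2 higher, CFZ-DOX against DOX 1 lower and the interaction 1 higher (Abcg2, 0.71, adjusted p = 0.0339), and the block changed no other call of a member. DESeq2-type size factors and DESeq2 each gave 2 higher with DOX, 2 and 1 with both drugs against DMSO and 1 higher for the interaction, with Abcc1 at 0.0336 in CFZ-DOX against DOX. Library-size scaling gave 0 and 4 for CFZ-DOX against DMSO, where Abcc1 turned to -0.12 and Cbr1 to -0.0509 without a call. It gave 1 higher for CFZ-DOX against CFZ, 4 lower for CFZ-DOX against DOX and a Cbr1 interaction of -0.0613. Over all genes, library-size scaling called 5159 and 6983 for CFZ-DOX against DMSO, 5757 and 6747 against CFZ, and 667 and 2820 against DOX. Upper-quartile scaling gave 4 and 0 with DOX and 3 and 0 with both drugs against DMSO. It also turned values that were not called: Cbr3 to 0.18 with DOX, and Abcb1a to 0.0257, Abcg2 to 0.36 and Cbr3 to 0.0643 with both drugs. It gave Abcb1b 0.26 for CFZ-DOX against CFZ, Abcc1 0.0797 and Cbr1 0.0312 for CFZ-DOX against DOX, and 1 and 3 for the interaction. Ribosomal protein scaling gave 0 and 6 for DOX, all members but Abcb1a. It turned Abcb1b to -0.32, Abcc1 to -0.61, Abcg2 to -0.65 and Cbr1 to -0.48, all called. Without a call it turned Abcb1a to -0.51 and, outside the 7, Cyb5a to -0.0181, Mvp to -0.26 and Cryz to -0.20. It gave 0 and 7 for CFZ-DOX against DMSO, where Abcb1b (-1.26), Abcc1 (-1.42) and Cbr1 (-1.35) had turned, as had Mvp (-0.72), Cryz (-0.55) and Nqo1 (-0.78) outside the 7. It gave 0 and 7 against CFZ, where Abcg2 (-0.62) and Cbr1 (-1.08) had turned, 7 lower against DOX and a Cbr1 interaction of -0.61. Over all genes, ribosomal protein scaling called 2236 and 9065 with DOX and 1858 and 11407 for CFZ-DOX against DMSO. For CFZ-DOX it called 2231 and 10860 against CFZ, and 127 and 8778 against DOX. Without a filter, DOX gave 0 lower, CFZ-DOX against DMSO 0 higher and CFZ-DOX against DOX 1 lower. With a minimum count of 50, DOX gave 3 and 0, CFZ-DOX against DMSO 3 and 1, and the interaction 1 higher. Abcg2 then turned to 0.0518 in CFZ-DOX against DMSO without a call, and Abcc1 was at 0.0304 in CFZ-DOX against DOX. With only the groups compared, DOX gave 2 higher and CFZ-DOX against DMSO 1 lower.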
